A study of Mus musculus with 16 samples.

Results

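Epidermal sheets of skin from E13.5 mouse embryos were compared between *Sas-4* conditional mutants and controls in 8 of the 16 RNA-Seq libraries of the series, 4 titled mutant and 4 titled control, and the other 8 libraries came from keratinocytes at P0. By their genotype labels, the libraries titled mutant carried Sas-4 fl/fl together with a K14-Cre transgene (tg/wt). Those titled control carried Sas-4 fl/wt without it (K14-Cre wt/wt). The column names conflict with these labels, as described below. The strain label was FVB/C57BL6 for all of them, and the labels do not say that each library came from a separate embryo, so the p-values measure the spread between libraries, which may be technical. The *Keratin 14* promoter drives Cre in stratified epithelia, and dermis, blood and other cells of the skin keep *Sas-4*. By the genotype labels, none of the libraries titled control carried Cre, so effects of Cre and of *Sas-4* loss cannot be told apart here. Of 49452 genes in the table, 12866 reached 1 FPKM (fragments scaled to gene length and to the mapped fragments of the library) in 4 or more libraries and were tested. At that threshold, *Pcdhgb4* and *Tubg2* lay just inside, each with a deciding value of 1.0003 FPKM, and *Atf7ip2* and *Col6a2* lay just outside, with 0.997 FPKM each.

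*Sas-4*, listed as *Cenpj*, encodes a protein that builds the centriole wall, and centrioles organize the centrosome and template the primary cilium. In dividing cells that lose centrioles, the proteins encoded by *Trp53bp1* and *Usp28* are known to stabilize p53 after a prolonged mitosis, a route called the mitotic surveillance pathway. p53 then activates genes of cell cycle arrest, apoptosis and its own feedback. At E13.5 the epidermis is beginning to stratify, with a basal layer marked by *Krt5* and *Krt14*, early suprabasal cells that turn on *Krt1* and *Krt10*, an outer periderm rich in simple keratins, and the first hair placodes about to form.

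The targeted gene and the labels were checked first, because titles and column names conflict. In the deposited table, the column of each library titled mutant has a name ending in ctrl, and that of each library titled control ends in mut. *Cenpj* (ENSMUSG00000064128, minus strand of chromosome 14 of mm10, 56526761 to 56571846) had 9.17, 8.66, 9.02 and 8.74 FPKM in the libraries titled mutant 1 to 4, against 3.72, 3.85, 3.56 and 3.66 FPKM in those titled control 1 to 4. Every library titled mutant was above every library titled control (limma log2 fold change 1.08 ± 0.05, where ± gives the standard error here and after every fold change, adjusted p = 1.87e-06, exact permutation p = 0.0286, two-sided, the smallest that 4 against 4 libraries allow). At P0 there was no such conflict, and *Cenpj* had 1.52, 1.41, 1.35 and 1.09 FPKM in mutants, against 4.35, 3.35, 3.22 and 4.29 FPKM in controls. By their genotype labels, the P0 mutants carried Sas-4 fl/fl with K14-Cre, and the P0 controls carried Sas-4 fl/wt. The controls with 3.35 and 3.22 FPKM also carried K14-Cre, unlike the E13.5 libraries titled control, so the controls of the 2 stages differ. The titled-mutant effect at E13.5 exceeded that at P0 by 2.11 ± 0.12 on the log2 scale (standard error of the contrast in limma, adjusted p = 3.23e-09 over the 11858 genes tested at both stages). The targeted gene therefore followed the column names, not the titles, at E13.5. Whole-gene FPKM does not show which exons were read. Below, the groups are named by title, as the libraries titled mutant and titled control, and grouping by column name reverses every direction and changes no p.

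**Figure D1:**
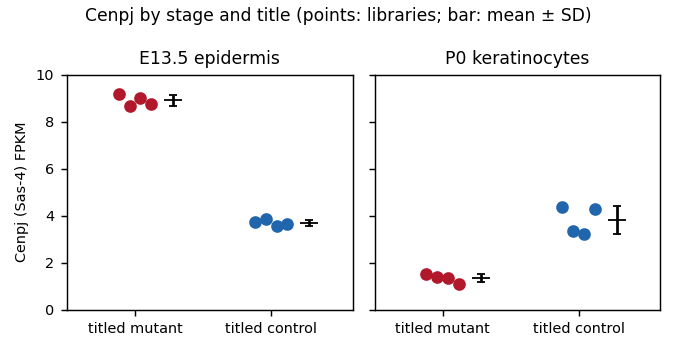
*Cenpj* FPKM in every library at E13.5 and at P0, with titled mutant libraries on the left of each panel; points are libraries and bars are the mean ± SD of 4. The titled mutant libraries sit between 8.66 and 9.17 FPKM at E13.5, above the titled control libraries, and the mutants at P0 sit below their controls.

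The 8 libraries were separated by title along the first principal component of log2(FPKM + 1), which held 37.2% of the variance. The libraries titled mutant scored -18.6 to -17.4, titled control 1 and 2 scored 10.05 and 15.4, and titled control 3 and 4 scored 23.0 and 23.2. Titled control 3 and 4 carry another number in their description than the other 6 libraries, and what the number marks is not given. Correlation of log2(FPKM + 1) was 0.978 to 0.985 within the titled mutant group, 0.980 to 0.985 within the titled control group and 0.969 to 0.976 between them. Y-linked genes were read in 1 library of each group. The tables hold no read totals, but the spacing of low FPKM values put depth at 0.838 to 0.914 of that of titled control 1 in the titled mutant libraries, and at 0.940 to 1.03 of it in the other titled control libraries. The 8 keratinocyte markers summed to 3063 to 3676 FPKM in titled mutant libraries and to 3146 to 3596 FPKM in titled control libraries. All 7 Merkel cell markers, 9 of 10 endothelial markers and 10 of 12 myeloid markers stayed under 1 FPKM in every library. The 12 muscle markers summed to 6.84 to 22.1 FPKM in titled mutant libraries, highest in titled mutant 2. In titled control libraries they summed to 5.87 to 13.3 FPKM. The 11 nerve and Schwann markers summed to 14.1 to 14.9 FPKM in titled mutant libraries, against 14.5 to 15.5 FPKM in titled control libraries. The 18 dermal fibroblast markers summed to 693 to 727 FPKM in titled mutant libraries and to 500.1 to 550.0 FPKM in titled control libraries. *Postn* alone made up most of the difference between these sums, while *Vim* and *Dcn*, also abundant, did not pass (values below). Of the 18, 4 stayed under 1 FPKM in every library, and 3 of the 11 tested were called. The 12 erythroid markers, of which 9 were in the table, summed to 42.3 to 207 FPKM in titled mutant libraries, highest in titled mutant 2, and to 39.3 to 317 FPKM in titled control libraries, highest in titled control 4. The 10 melanoblast markers summed to 63.7 to 64.8 FPKM in titled mutant libraries and to 80.8 to 93.8 FPKM in titled control libraries. In bulk RNA, fewer cells of a type and less RNA per cell cannot be told apart.

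Across all tested genes, 3243 (25.2%) had a limma adjusted p under 0.05. Of these, 1516 (11.8% of all tested) were higher in the libraries titled mutant and 1727 (13.4%) were lower. The median log2 fold change over all 12866 genes was 0.00, and the middle 90% of genes lay between -0.39 and 0.38. The groups did not overlap at 3610 genes (28.1%). The study's methods state a fold change of at least 2 and an unadjusted p of at most 0.05. These thresholds, used here on log2(FPKM + 1), took 145 genes (1.13%), 27 higher and 118 lower. Grouped by column name, 118 are higher in mutants and 27 are lower. The paper used its own pipeline and reports most of its differentially expressed E13.5 genes as upregulated in centrosome mutants. It names *Bbc3*, *Pmaip1* and *Bax* among them, which here are higher in mutants by column name only. Without titled control 3 and 4, the adjusted p took 1267 genes (9.85%), 536 higher and 731 lower, and 140 passed the fold threshold. Without titled mutant 1, 1001 genes were higher at the adjusted p, and without titled mutant 3 the fold threshold took 45 higher genes. Lists of 1047 genes in all, of which 856 were tested, are described next by these calls, with the counts without titled control 3 and 4 (4 against 2 libraries) beside them. Over all tested genes, that smaller fit cut the calls from 1516 to 536 higher and from 1727 to 731 lower. A smaller count in a list without these libraries is therefore not by itself particular to that list.

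**Figure D2:**
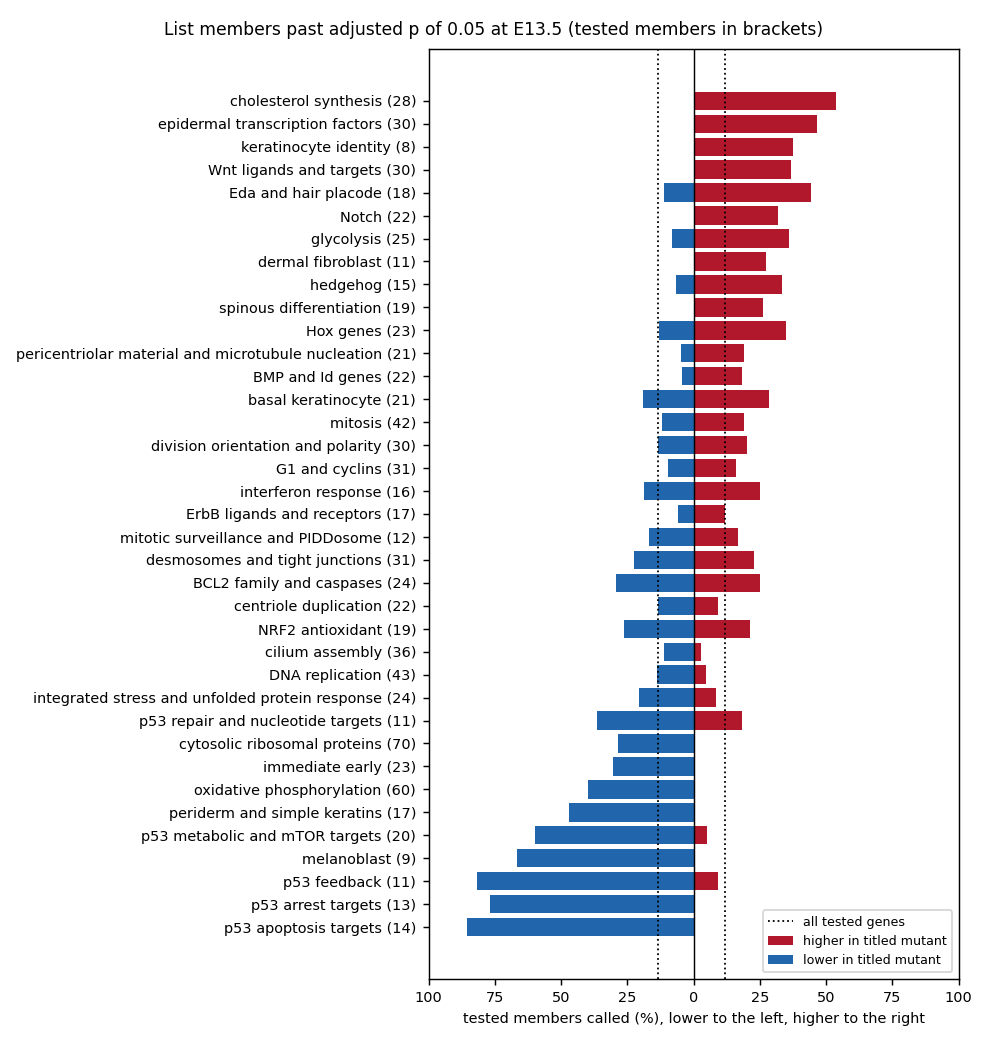
Percentage of the tested members of each gene list past an adjusted p of 0.05 that were higher (right) or lower (left) in titled mutant libraries, with the number of tested members in brackets and dotted lines at 11.8% and 13.4% for all tested genes. The p53 apoptosis, feedback and arrest lists extend farthest to the left, and cholesterol synthesis extends farthest to the right.

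Most tested members of the p53 lists of arrest, apoptosis, feedback and metabolism were lower in the libraries titled mutant. The feedback list holds *Trp53*, *Trp63* and *Trp73* as well as targets. Of tested members, 76.9% of the arrest list, 85.7% of apoptosis, 81.8% of feedback, 60.0% of metabolism and 36.4% of repair were lower. The share over all tested genes was 13.4%. Higher were 9.09% of feedback, 5.0% of metabolism and 18.2% of repair, against 11.8% of all tested genes. Over the 5 p53 lists together, 68 of 75 genes were tested, and 46 of them (67.6%) were lower, against 13.4% of all tested genes. Another 4 were higher, and the remaining 18 were not called (median log2 fold change -0.44, against 0.00 over all genes). Without titled control 3 and 4, 39 were lower and 1 was higher. The lists were chosen with earlier results of these data known. Among the 46, *Fas*, *Eda2r*, *Ddit4l*, *Ak1* and *Ptprv* passed the filter through the titled control libraries alone and had to be lower. No count was made without them. Grouped by column name, the 46 genes are higher in mutants.

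Of 13 genes of cell cycle arrest, 10 were lower and none was higher (median -1.05, with 9 lower without titled control 3 and 4). *Cdkn1a*, the gene of p21, which blocks cyclin-dependent kinases, had 7.99, 9.28, 4.97 and 6.101 FPKM in the libraries titled mutant 1 to 4, against 64.1, 54.3, 74.2 and 73.4 FPKM in those titled control 1 to 4. No titled mutant library came near a titled control library, and titled control 3 and 4 were the highest (log2 fold change -3.08 ± 0.17, adjusted p = 5.71e-06). The cyclin G1 gene *Ccng1*, whose product binds MDM2 and a phosphatase, had 22.7, 22.8, 23.9 and 23.7 FPKM in titled mutant libraries, against 142, 121, 164 and 164 FPKM in titled control libraries. Its 4 titled mutant values were almost the same, while its titled control values spread more widely (log2 fold change -2.61 ± 0.09). *Zmat3*, which encodes an RNA-binding protein, followed with 6.65, 6.52, 6.72 and 6.69 FPKM in titled mutant libraries, against 24.8, 20.4, 25.2 and 23.7 FPKM in titled control libraries. *Btg2*, an antiproliferative gene, had 12.1, 11.6, 10.8 and 11.8 FPKM in titled mutant libraries, against 40.3, 33.96, 43.2 and 43.3 FPKM in titled control libraries. The kinase gene *Plk2* (43.6 against 81.98 FPKM, log2 fold change -0.90), the mitotic regulators *Gtse1* (-1.05) and *Psrc1* (-1.16) and *Phlda3*, a repressor of AKT (-1.07), were lower with no overlap. *Ckap2* was lower by a smaller amount (log2 fold change -0.44), and *Plk3* (-0.26, adjusted p = 0.0283) lost its call in 8 of the 18 alternatives. *Sfn*, which encodes 14-3-3 sigma and is abundant in keratinocytes, did not pass (mean ± SD of 4 libraries, here and for later means, 265 ± 33.3 FPKM in titled mutant and 286 ± 13.3 FPKM in titled control libraries), nor did *Cdkn2aip* (log2 fold change -0.15) or *Gadd45a* (-0.19).

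Apoptosis genes gave 12 of 14 lower and none higher (median -1.31), and 11 were lower without titled control 3 and 4. *Bbc3*, which encodes PUMA, a BH3-only activator of the mitochondrial route, had 1.34, 1.84, 1.16 and 1.65 FPKM in the libraries titled mutant 1 to 4, against 10.1, 8.04, 9.73 and 8.32 FPKM in those titled control 1 to 4 (log2 fold change -2.01 ± 0.11, adjusted p = 4.57e-06). *Pmaip1*, which encodes NOXA of the same class, had 9.16, 9.33, 6.72 and 9.09 FPKM in titled mutant libraries, against 26.9, 23.9, 26.1 and 26.2 FPKM in titled control libraries. *Bax*, the effector that permeabilizes the outer mitochondrial membrane, had 74.9, 75.8, 77.9 and 78.4 FPKM in titled mutant libraries, against 150.5, 152, 167 and 169 FPKM in titled control libraries, lower in all 4 titled mutant libraries (log2 fold change -1.04 ± 0.04). *Apaf1*, the scaffold of the apoptosome, had 7.19, 6.51, 7.26 and 6.93 FPKM in titled mutant libraries, against 17.3, 15.8, 18.6 and 19.6 FPKM in titled control libraries. Among death receptors, *Fas* had 0.159, 0.2304, 0.0907 and 0.182 FPKM in titled mutant libraries, against 3.56, 2.09, 3.51 and 2.89 FPKM in titled control libraries. *Fas* was thus under 1 FPKM in every library titled mutant and passed the filter through the titled control libraries alone, as did *Eda2r*, *Ddit4l*, *Ak1* and *Ptprv* of the p53 lists. Genes that pass in this way had to differ. *Tnfrsf10b*, the TRAIL receptor, was lower as well (5.45 ± 0.104 FPKM in titled mutant and 15.9 ± 1.27 FPKM in titled control libraries, log2 fold change -1.38). So was *Eda2r*, a receptor of the same superfamily (0.527, 0.593, 0.406 and 0.733 FPKM in titled mutant libraries, against 9.57, 6.77, 11.4 and 11.4 FPKM in titled control libraries). *Trp53inp1*, a nuclear protein of the p53 response, showed 5.61, 5.58, 5.56 and 5.26 FPKM in titled mutant libraries, against 48.1, 37.5, 54.6 and 52.9 FPKM in titled control libraries. *Dcxr*, a carbonyl reductase (log2 fold change -1.96), and *Aen*, an apoptosis-enhancing nuclease (-1.05), were lower, and smaller differences were seen for *Bcl2l11*, which encodes BIM (-0.35), and *Triap1* (-0.25, not past the threshold without titled control 3 and 4, adjusted p = 0.0552). *Perp*, a desmosomal gene that p63 also activates, had 479 ± 45.7 FPKM in titled mutant and 455 ± 13.7 FPKM in titled control libraries (log2 fold change 0.07, adjusted p = 0.464). *Pidd1*, which encodes a component of the PIDDosome, had 10.9 ± 0.702 FPKM in titled mutant and 11.5 ± 0.567 FPKM in titled control libraries (log2 fold change -0.07), and neither gene passed.

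The p53 gene itself differed little. *Trp53* had 164, 165, 163 and 166 FPKM in the libraries titled mutant 1 to 4, against 169, 177, 180.0 and 177 FPKM in those titled control 1 to 4 (log2 fold change -0.10 ± 0.03, adjusted p = 0.037), and its call was lost in 12 of the 18 alternatives. *Mdm2*, which encodes the ubiquitin ligase that degrades p53, had 19.0, 23.4, 20.7 and 21.01 FPKM in titled mutant libraries, against 37.3, 31.6, 38.5 and 40.9 FPKM in titled control libraries (log2 fold change -0.79). *Mdm4*, its partner, did not pass (42.3 ± 4.06 FPKM in titled mutant and 42.7 ± 7.18 FPKM in titled control libraries). Of the 11 tested feedback genes, 9 were lower and *Trp63* alone was higher, and 6 were lower without titled control 3 and 4. The phosphatase gene *Ppm1d* (log2 fold change -0.49), the ubiquitin ligase gene *Rchy1* (-0.41), *Wrap53*, which overlaps *Trp53* on the opposite strand, so that reads of both may be mixed (-0.43), and the non-coding *Pvt1* (-0.37, adjusted p without titled control 3 and 4 = 0.108) were among those that fell. *Ptprv*, a receptor phosphatase gene, had 0.0192, 0.222, 0.0471 and 0.0395 FPKM in titled mutant libraries, against 3.56, 1.5, 2.76 and 3.62 FPKM in titled control libraries. Of the family members, *Trp63*, the master regulator of stratified epithelia, had 149, 149, 155 and 151 FPKM in titled mutant libraries, against 119, 126, 124 and 122 FPKM in titled control libraries. Every titled mutant library was above every titled control library (log2 fold change 0.30 ± 0.03, adjusted p = 2.12e-04). *Trp73* was lower (5.51 ± 0.685 FPKM in titled mutant and 7.28 ± 0.688 FPKM in titled control libraries, log2 fold change -0.35), a call lost in 6 of the 18 alternatives.

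**Figure D3:**
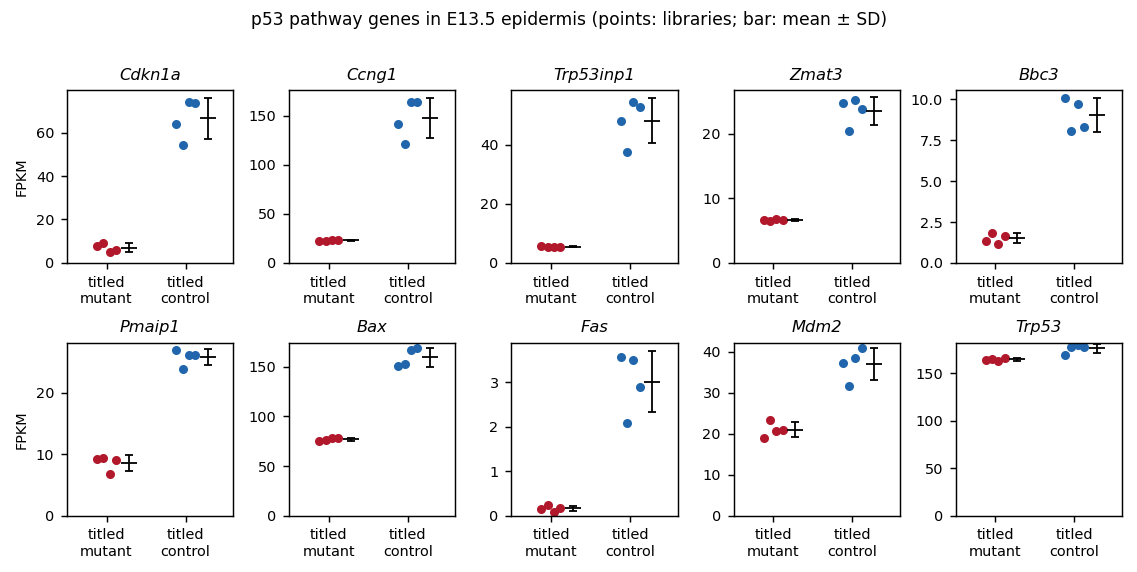
FPKM of 10 genes of the p53 pathway in each library, titled mutant on the left and titled control on the right; points are libraries and bars are the mean ± SD of 4. The groups do not overlap in any panel, and *Trp53* differs by the least (log2 fold change -0.10).

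Metabolic targets were mixed in size. Of 20 tested, 12 were lower (10 without titled control 3 and 4) and *Abat*, a GABA transaminase gene, was higher (log2 fold change 0.42, lost in 6 of the 18 alternatives). *Cpt1c*, a carnitine palmitoyltransferase isoform mostly known from neurons, had 1.96, 1.78, 1.203 and 1.44 FPKM in the libraries titled mutant 1 to 4, against 27.9, 22.8, 26.7 and 26.95 FPKM in those titled control 1 to 4, the largest of the 12 falls named by size. *Ddit4l*, an inhibitor of mTOR signalling, had 0.164, 0.254, 0.138 and 0.262 FPKM in titled mutant libraries, against 7.77, 7.04, 9.46 and 10.3 FPKM in titled control libraries. *Sesn2*, a sestrin that restrains mTOR complex activity, had 10.8, 10.3, 10.9 and 11.2 FPKM in titled mutant libraries, against 31.2, 28.1, 33.9 and 35.3 FPKM in titled control libraries. Its paralogue *Sesn1* did not pass (13.8 ± 1.06 FPKM in titled mutant and 12.3 ± 0.583 FPKM in titled control libraries). *Slc19a2*, the thiamine transporter gene (log2 fold change -1.84), *Abhd4*, a lipase gene (-1.03), *Ak1*, adenylate kinase (-1.04), *Lpin1*, lipin (-0.60), *Rap2b*, a small GTPase (-0.55), *Fuca1*, a lysosomal fucosidase (-0.44), and *Ldhb*, a lactate dehydrogenase subunit (-0.37), were lower. *Ddit4* (-0.36, adjusted p without titled control 3 and 4 = 0.139) and *Pltp* (-0.12, lost in 13 of the 18 alternatives) were less stable. *Tigar* (log2 fold change -0.10), *Sco2* (-0.13), *Gls2* (0.17), *Fdxr* (-0.11), *Prkab1* (0.12) and *Ralgds* (0.03) did not pass. For repair and nucleotide synthesis, 4 of 11 were lower and 2 were higher (median -0.04, with 0 higher and 4 lower without titled control 3 and 4). *Polk*, a translesion polymerase, had 4.98, 5.101, 4.71 and 4.74 FPKM in titled mutant libraries, against 15.4, 13.2, 15.4 and 15.6 FPKM in titled control libraries. *Mgmt*, which removes alkyl groups from guanine, had 2.14, 2.79, 2.76 and 2.62 FPKM in titled mutant libraries, against 7.07, 7.46, 6.98 and 8.03 FPKM in titled control libraries. *Ercc5* (log2 fold change -0.86) and *Rnf169* (-0.80) were lower too. Higher were *Ddb2*, a sensor of ultraviolet damage (0.30), and *Polh*, a second translesion polymerase (0.25), and neither passed without titled control 3 and 4 (adjusted p = 0.0639 and 0.183). *Xpc* (-0.03), *Rrm2b* (-0.03), *Rad51c* (0.27), *Tnfaip8* (-0.19) and *Fancc* (-0.04) did not pass.

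Promoters were searched for the p53 response element, the pair of half-sites that p53, p63 and p73 share, on both strands at once since the element is its own reverse complement. The window ran from 250 bases before to 50 after each RefSeq start (GRCm38.p6, the same assembly as mm10), and a match kept the central C and G of both half-sites, allowed a spacer of 0 or 1 base and counted mismatches over the rest. A promoter was found by symbol for 9077 of the 12866 tested genes. Where a gene had more than 1 promoter, the one with the fewest mismatches was kept, so such genes had more chances to match. At most 2 mismatches were found in 9 of the 88 genes with a promoter that were lower by the fold rule (10.2%), and in 24 of the 1287 lower at the adjusted p (1.86%). They were found in 0 of 11 higher by the fold rule, in 8 of the 1119 higher at the adjusted p (0.715%) and in 88 of all 9077 (0.969%), and over all 32851 RefSeq promoters in 0.682%. With at most 3 mismatches the shares were 18.2%, 5.91%, 9.09%, 3.31% and 4.04% for the same sets of tested genes, and with at most 4 they were 28.4%, 14.9%, 9.09%, 12.5% and 13.1%. A match is a description of the letters and does not show binding. Some genes lower by the fold rule, *Ms4a10* and *Zfp365* of the 9 among them, passed the filter through the titled control libraries alone. Such genes had to be lower, and no share was made without them. The 9 elements of the genes lower by the fold rule are printed because they are the closest matches among these genes, each as 30 bases of the gene's strand with the half-sites in capitals. Their places are chr17:29090923-29090952 (plus strand, *Cdkn1a*), chr19:10974776-10974805 (minus, *Ms4a10*), chr10:67912701-67912730 (minus, *Zfp365*), chr11:40755457-40755486 (minus, *Ccng1*), chr2:28466280-28466309 (minus, *1700007K13Rik*), chr9:50727982-50728011 (minus, *Dixdc1*), chr1:84284679-84284708 (minus, *Pid1*), chr15:85859940-85859969 (plus, *Gtse1*) and chr7:45467074-45467103 (minus, *Bax*).
Cdkn1a: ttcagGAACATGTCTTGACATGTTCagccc
Ms4a10: tgaagGATCTAGTCCAGACATGCATctctg
Zfp365: tagcaAGACTAGGCTGGGCAAGACTggcac
Ccng1: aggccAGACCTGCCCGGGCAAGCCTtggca
1700007K13Rik: gcacAGACTTGATCtGGGCTAGTTTcctgc
Dixdc1: gcgcGAGCATGCCCaGTGCAAGCCGctagt
Pid1: ggcagAAGCCCGCCCGGGCATGCTCagacc
Gtse1: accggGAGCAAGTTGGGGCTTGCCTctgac
Bax: tcccAGGCAAGCTTtGAACTTGCGGcaatt
Those of *Cdkn1a*, *Ccng1*, *1700007K13Rik* and *Gtse1* carried 1 mismatch and the others 2. They began 51 bases before the kept start of *Cdkn1a*, 195 before *Ccng1* and 201 before *Bax*, and the element of *1700007K13Rik* began 19 bases after its start. *Cdkn1a*, *Dixdc1* and *Gtse1* each had 2 promoters to choose from, and the other genes printed had 1. *Dixdc1*, *Pid1* and *1700007K13Rik* are named for their promoters after their values were seen. They had 1.54 against 6.396 FPKM, 1.48 against 5.92 FPKM and 3.68 against 16.1 FPKM in titled mutant against titled control libraries (log2 fold changes -1.54, -1.47 and -1.87).

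**Figure D4:**
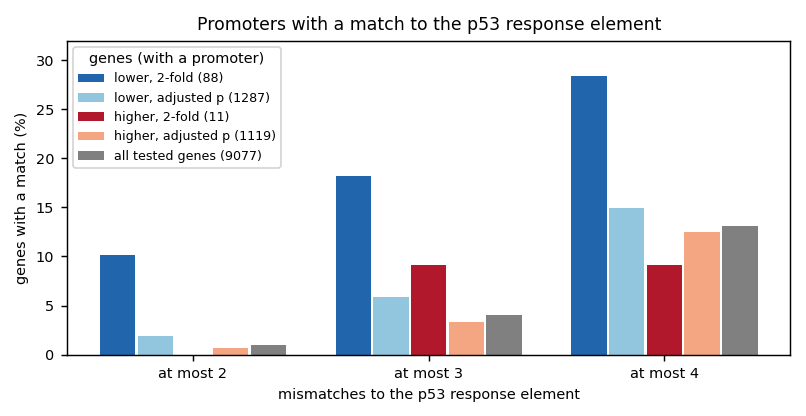
Percentage of genes with a promoter match to the p53 response element, by the number of mismatches allowed, for genes lower or higher in titled mutant libraries by the fold rule or the adjusted p, and for all tested genes (grey), with the number of genes in brackets. The genes lower by the fold rule have the highest share at each allowance, 10.2%, 18.2% and 28.4%. Some of them passed the filter through the titled control libraries alone.

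Spinous, transcription factor and periderm genes were each called in 1 direction, and in none of these lists did most members pass. Of tested members, 26.3% of the spinous list and 46.7% of the transcription factor list were higher, against 11.8% of all tested genes. In the periderm list 47.1% were lower, against 13.4% of all tested genes. Of 19 genes of spinous differentiation, 5 were higher and none was lower (median 0.38), and 3 were higher without titled control 3 and 4. *Krt1*, the first keratin of the spinous layer, had 104.6, 117, 39.6 and 61.02 FPKM in the libraries titled mutant 1 to 4, against 17.7, 20.8, 16.8 and 24.4 FPKM in those titled control 1 to 4 (log2 fold change 1.85 ± 0.31, adjusted p = 0.00334). Titled mutant 1 and 2 were well above titled mutant 3 and 4, and all 4 were above titled control. Its partner *Krt10* had 232, 247, 110.2 and 147 FPKM in titled mutant libraries, against 84.3, 89.8, 79.4 and 123 FPKM in titled control libraries, where titled mutant 3 lay below titled control 4. Its call (log2 fold change 0.90, adjusted p = 0.0307) was lost in 7 of the 18 alternatives, among them leaving out titled control 3 and 4 (adjusted p = 0.0958). *Fabp5*, an epidermal fatty acid binding protein, was evenly higher (632, 604, 528 and 552 FPKM in titled mutant libraries, against 379.6, 419, 398 and 437 FPKM in titled control libraries). *Calml3*, a calmodulin-like gene of epithelia, had 1.78 ± 0.329 FPKM in titled mutant and 0.73 ± 0.218 FPKM in titled control libraries, and it passed the filter through the titled mutant libraries alone. *Dsg1a*, a desmoglein of differentiating layers, had 5.39 ± 1.83 FPKM in titled mutant and 2.61 ± 0.2197 FPKM in titled control libraries (adjusted p without titled control 3 and 4 = 0.0851). *Krtdap*, with the highest level after *Fabp5*, did not pass (309.8 ± 108 FPKM in titled mutant and 232 ± 51.4 FPKM in titled control libraries). By column name the same 5 genes are lower in mutants.

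Of 30 epidermal transcription factors, 14 were higher and none was lower (median 0.25), and 8 were higher without titled control 3 and 4. *Pou2f3*, a POU factor of suprabasal keratinocytes, had 30.4, 34.3, 22.9 and 27.3 FPKM in titled mutant libraries, against 13.4, 14.3, 13.9 and 13.98 FPKM in titled control libraries. *Gata3*, a factor of the epidermal barrier, had 40.8, 42.7, 34.1 and 39.2 FPKM in titled mutant libraries, against 24.8, 25.6, 24.1 and 25.3 FPKM in titled control libraries. The groups were apart for both (log2 fold changes 0.98 ± 0.10 and 0.63 ± 0.06). *Klf5*, a Krüppel-like factor of proliferating epithelia (50.3 against 32.7 FPKM, log2 fold change 0.60), was higher. *Tfap2b* (122 ± 10.6 FPKM in titled mutant and 111 ± 5.24 FPKM in titled control libraries) was among the most abundant of the list and did not pass.

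In the basal keratinocyte list 6 of 21 were higher and 4 were lower (median -0.04, with 2 higher and 2 lower without titled control 3 and 4). Called in either direction were 47.6% of its tested members, against 25.2% of all tested genes. *Krt5* (1170.0 ± 151 FPKM in titled mutant and 1229.9 ± 76.96 FPKM in titled control libraries) and *Krt14* (961 ± 36.6 FPKM in titled mutant and 993 ± 75.3 FPKM in titled control libraries) had the highest levels and did not pass. *Col17a1*, which encodes a hemidesmosomal collagen, was higher (59.6, 58.8, 49.3 and 55.7 FPKM in titled mutant libraries, against 31.1, 33.9, 33.8 and 33.05 FPKM in titled control libraries). *Itgb1*, the beta chain of the main collagen and laminin receptors, was lower by little (log2 fold change -0.22), and *Cdh3*, P-cadherin, likewise (-0.23, adjusted p without titled control 3 and 4 = 0.0613).

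Periderm genes and simple keratins moved the other way from *Krt1*, with 8 of 17 lower and none higher (median -0.50), and 9 lower without titled control 3 and 4. *Krt8* had 13.7, 12.1, 9.87 and 8.57 FPKM in titled mutant libraries, against 26.2, 23.3, 18.1 and 16.4 FPKM in titled control libraries. *Krt18*, its partner in simple epithelia, had 14.7, 12.7, 12.7 and 11.6 FPKM in titled mutant libraries, against 26.7, 25.7, 20.8 and 21.3 FPKM in titled control libraries. Both were lower in every titled mutant library, and titled control 1 and 2 were above titled control 3 and 4 (log2 fold changes -0.86 ± 0.17 and -0.82 ± 0.09). *Cldn6* and *Cldn4*, claudins of early epithelia, were lower as well (log2 fold changes -0.54 and -0.37). *Krt6a*, which shares sequence with its neighbour *Krt6b* and is uncertain where reads could be split between them, had 0.808 ± 0.1302 FPKM in titled mutant and 2.101 ± 0.509 FPKM in titled control libraries (log2 fold change -0.77), and it passed the filter through the titled control libraries alone. *Krt17* had 102, 92.7, 91.8 and 86.6 FPKM in titled mutant libraries, against 163, 156, 106 and 114 FPKM in titled control libraries, a call lost in 5 of the 18 alternatives. *Epcam*, one of the most abundant members, did not pass (101.2 ± 1.52 FPKM in titled mutant and 102 ± 5.697 FPKM in titled control libraries). By column name, these keratins are higher in mutants.

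**Figure D5:**
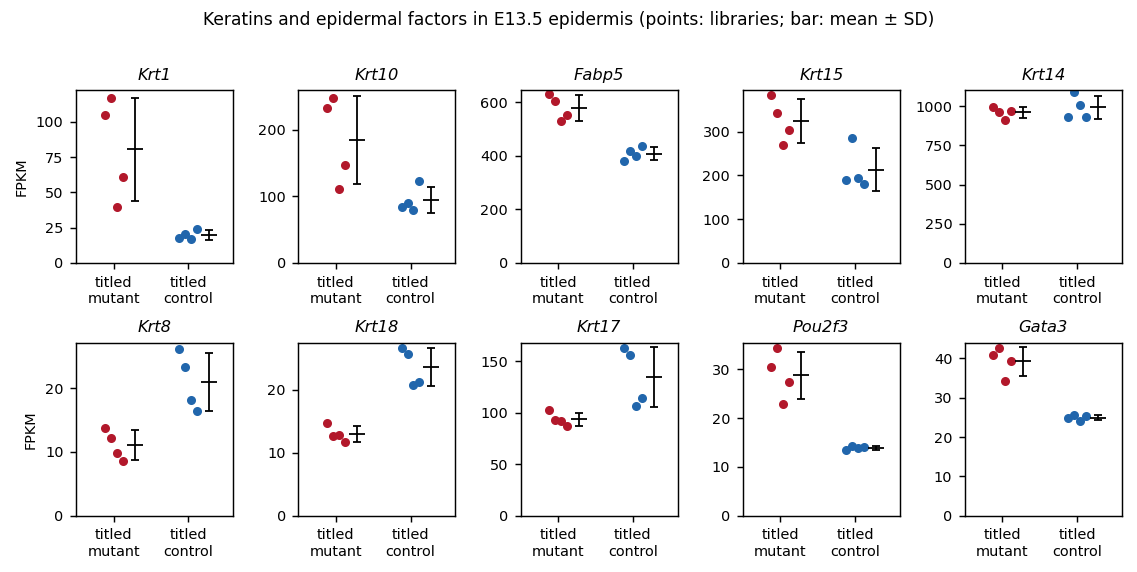
FPKM of keratins, *Fabp5*, *Pou2f3* and *Gata3* in each library, titled mutant on the left and titled control on the right; points are libraries and bars are the mean ± SD of 4. *Krt1*, *Fabp5*, *Pou2f3* and *Gata3* are higher in the titled mutant libraries, *Krt8* and *Krt18* are lower, *Krt14* does not pass, and *Krt10* and *Krt15* overlap.

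Among hair placode genes and the signals that pattern the early epidermis, 44.4% of tested members of the Eda and placode list, 36.7% of the Wnt list, 33.3% of the hedgehog list and 31.8% of the Notch list were higher, against 11.8% of all tested genes. The share was 18.2% for the BMP list and 11.8% for the ErbB list. Of 18 tested members of the Eda and placode list, 8 were higher and 2 were lower (median 0.26), with 7 higher without titled control 3 and 4. *Dkk4*, a secreted Wnt antagonist that marks placodes, had 60.3, 56.1, 37.9 and 48.8 FPKM in the libraries titled mutant 1 to 4, against 22.9, 31.3, 27.1 and 31.04 FPKM in those titled control 1 to 4. *Sostdc1*, a secreted antagonist of BMP and Wnt signals at the placode edge, had 55.5, 60.6, 41.9 and 47.6 FPKM in titled mutant libraries, against 29.3, 31.05, 27.4 and 27.2 FPKM in titled control libraries. Both groups were apart for these genes (log2 fold changes 0.82 ± 0.15 and 0.81 ± 0.10). *Edaradd*, the adaptor of the ectodysplasin receptor (log2 fold change 0.41), *Foxi3*, a forkhead factor of placodes (0.47), and *Barx2*, a homeobox factor (0.42), were higher. *Edar*, the receptor itself, did not pass and is named after its value was seen (14.9 ± 0.629 FPKM in titled mutant and 16.1 ± 0.682 FPKM in titled control libraries). *Tnfrsf19*, a related receptor and the most abundant member, did not pass (131 ± 9.98 FPKM in titled mutant and 128 ± 5.73 FPKM in titled control libraries).

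Of 30 Wnt genes, 11 were higher and none was lower (median 0.09, with 3 higher without titled control 3 and 4). Among them was *Wnt4*, a ligand of the epidermis (59.9 ± 3.32 FPKM in titled mutant and 45.2 ± 3.95 FPKM in titled control libraries). *Apcdd1*, a membrane inhibitor of Wnt signals (log2 fold change 0.32), *Lef1*, the nuclear partner of beta-catenin in placodes (0.35, adjusted p without titled control 3 and 4 = 0.065), and *Fzd6*, a receptor that also orients hairs (0.24, 0.0707 without titled control 3 and 4), were higher as well. *Ctnnb1*, beta-catenin itself, did not pass (745 ± 41.8 FPKM in titled mutant and 811 ± 66.8 FPKM in titled control libraries). Nor did *Wls*, which carries Wnt ligands to the surface (173 ± 7.53 FPKM in titled mutant and 179.8 ± 6.72 FPKM in titled control libraries).

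In the hedgehog list, 5 of 15 were higher and 1 was lower (median 0.15, with 3 higher and 1 lower without titled control 3 and 4). *Gli1*, a factor whose transcription reads out the pathway, had 6.36, 8.11, 3.22 and 4.11 FPKM in titled mutant libraries, against 1.66, 1.602, 1.77 and 2.09 FPKM in titled control libraries. Titled mutant 1 and 2 were highest (log2 fold change 1.15 ± 0.22, adjusted p = 0.00578, and 0.0452 without titled control 3 and 4). *Gli2* was higher (16.5 ± 1.06 FPKM in titled mutant and 12.7 ± 0.5004 FPKM in titled control libraries). *Ccnd1*, cyclin D1, was the lower member (22.1, 24.97, 27.2 and 26.2 FPKM in titled mutant libraries, against 37.3, 31.7, 40.6 and 37.2 FPKM in titled control libraries). *Sufu*, a negative regulator, was higher by little (log2 fold change 0.18) and did not pass without titled control 3 and 4 (adjusted p = 0.0746). *Smo*, the transducer, did not pass (51.7 ± 2.03 FPKM in titled mutant and 49.7 ± 2.47 FPKM in titled control libraries). The coreceptor gene *Gas1* did not pass either (59.3 ± 2.49 FPKM in titled mutant and 61.6 ± 8.69 FPKM in titled control libraries).

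Of 22 Notch genes, 7 were higher and none was lower (median 0.08, with 3 higher without titled control 3 and 4). The fringe genes *Rfng* (log2 fold change 0.41) and *Lfng* (0.38), which tune ligand choice, and the coactivator gene *Maml2* (0.44) were higher, and *Jag2* (0.25) and *Hes1* (0.23) were not past the threshold without titled control 3 and 4 (adjusted p = 0.0803 and 0.0801). *Notch1* did not pass (84.7 ± 6.29 FPKM in titled mutant and 87.6 ± 7.97 FPKM in titled control libraries). In the BMP list 4 of 22 were higher and 1 was lower (median 0.01, with 2 higher and 0 lower without titled control 3 and 4). *Id4*, an inhibitor of basic helix-loop-helix factors, was higher (3.703 ± 0.577 FPKM in titled mutant and 1.93 ± 0.256 FPKM in titled control libraries). The most abundant member, *Bmp7*, did not pass (93.1 ± 6.79 FPKM in titled mutant and 92.4 ± 3.11 FPKM in titled control libraries), nor did *Id1* (75.98 ± 7.78 FPKM in titled mutant and 68.7 ± 4.35 FPKM in titled control libraries). Among ErbB genes 2 of 17 were higher and 1 was lower (median 0.05, with 1 higher and 1 lower without titled control 3 and 4). The higher members were the receptor genes *Erbb3* (30.2 ± 1.71 FPKM in titled mutant and 24.4 ± 0.7103 FPKM in titled control libraries) and *Erbb2* (log2 fold change 0.23, lost in 4 of the 18 alternatives). *Etv4*, a target of growth factor signalling, was lower (13.8, 19.1, 9.45 and 10.5 FPKM in titled mutant libraries, against 19.9, 20.6, 28.4 and 27.1 FPKM in titled control libraries) but not past the threshold without titled control 3 and 4 (adjusted p = 0.155), where another member was the lower one. Grouped by column name, each of these differences has the opposite sign.

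Among centriole, centrosome and cilium lists, 22.7% of tested members were called in either direction for centriole duplication, *Cenpj* included, 33.3% for surveillance, 23.8% for pericentriolar material and 13.9% for the cilium, against 25.2% of all tested genes. Of 22 genes of centriole duplication, 2 were higher and 3 were lower (median 0.00, with 1 higher and 1 lower without titled control 3 and 4). *Plk4*, the kinase that starts duplication (log2 fold change -0.11), *Stil* (0.07) and *Sass6* (-0.01), which build the cartwheel, did not pass, and these 3 are named after their values were seen. *Cep63*, which helps recruit the duplication machinery to the parent centriole, was lower (13.7 ± 0.703 FPKM in titled mutant and 17.9 ± 1.72 FPKM in titled control libraries). *Cetn3*, a centrin, was lower by little (log2 fold change -0.18), not without titled control 3 and 4 (adjusted p = 0.11). *Cep57*, the most abundant member not called, had 32.5 ± 1.88 FPKM in titled mutant and 29.9 ± 0.997 FPKM in titled control libraries. In the surveillance list, 2 of 12 were higher and 2 were lower, the lower members being *Trp53* and *Mdm2* (0 higher and 1 lower without titled control 3 and 4). *Casp2*, the caspase activated by the PIDDosome, was higher (49.4, 48.1, 49.0 and 50.4 FPKM in titled mutant libraries, against 44.4, 44.5, 43.3 and 42.2 FPKM in titled control libraries), with an adjusted p of 0.0587 without titled control 3 and 4. *Trp53bp1*, of the surveillance pathway, was higher (log2 fold change 0.26), a call lost in 8 of the 18 alternatives. *Usp28*, named after its value was seen, did not pass (10.4 ± 0.845 FPKM in titled mutant and 9.68 ± 1.41 FPKM in titled control libraries). Of 21 genes of pericentriolar material and microtubule nucleation, 4 were higher and 1 was lower (0 higher and 1 lower without titled control 3 and 4). *Haus2*, a subunit of augmin, was the lower member (14.2, 13.96, 14.5 and 14.9 FPKM in titled mutant libraries, against 20.5, 20.2, 20.3 and 24.6 FPKM in titled control libraries). *Tubg1*, gamma-tubulin, was higher by little (log2 fold change 0.13), lost in 8 of the 18 alternatives, as *Akap9* (0.39) was in 9. For the cilium, 4 of 36 were lower and 1 was higher (median -0.03, with 0 higher and 3 lower without titled control 3 and 4). *Ift27*, a small GTPase of the intraflagellar transport train, had 11.4, 12.1, 12.4 and 10.5 FPKM in titled mutant libraries, against 21.04, 22.6, 22.1 and 28.5 FPKM in titled control libraries, with no overlap (log2 fold change -0.95 ± 0.09, adjusted p = 1.86e-04). *Tctn1* and *Bbs7* were lower too (log2 fold changes -0.36 and -0.46), while *Ift46* and *Ift20*, the most abundant, did not pass (log2 fold changes 0.09 and -0.03).

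Of the cell cycle lists, 18.6% of tested DNA replication genes, 31.0% of mitosis genes and 25.8% of G1 genes were called, against 25.2% of all tested genes. Of 43 DNA replication genes, 2 were higher and 6 were lower (median -0.01, with 2 higher and 1 lower without titled control 3 and 4), and quantile normalization turned this to 9 higher and 4 lower. *Rrm2*, the small subunit of ribonucleotide reductase, was lower (126 ± 5.81 FPKM in titled mutant and 151 ± 4.25 FPKM in titled control libraries). *Tk1*, thymidine kinase, was higher (104.7 ± 4.48 FPKM in titled mutant and 86.3 ± 5.68 FPKM in titled control libraries). Of 42 mitosis genes, 8 were higher and 5 were lower (median -0.01, with 1 higher and 2 lower without titled control 3 and 4). *Pttg1*, securin, was higher (68.6, 66.3, 71.1 and 67.7 FPKM in titled mutant libraries, against 48.3, 54.5, 47.2 and 47.3 FPKM in titled control libraries). *Spc25*, a subunit of the kinetochore complex, was lower (45.2 ± 1.87 FPKM in titled mutant and 58.9 ± 2.75 FPKM in titled control libraries). So was *Cdc20*, which activates the anaphase-promoting complex (104 ± 0.483 FPKM in titled mutant and 125 ± 4.42 FPKM in titled control libraries). *Mki67*, the proliferation antigen, was higher (64.9 ± 3.96 FPKM in titled mutant and 51.2 ± 3.58 FPKM in titled control libraries) but not past the threshold without titled control 3 and 4 (adjusted p = 0.0524). *Cdk1*, the mitotic kinase (214 ± 5.58 FPKM in titled mutant and 228 ± 12.9 FPKM in titled control libraries), did not pass. In the list of G1 genes and cyclins, 5 of 31 were higher and 3 were lower (0 higher and 1 lower without titled control 3 and 4). *Rb1* (log2 fold change -0.39) was lower and *Ccne1*, cyclin E1 (0.31), higher, and neither passed without titled control 3 and 4 (adjusted p = 0.066 and 0.0834). *Cdk4* (772 ± 21.8 FPKM in titled mutant and 762 ± 34.3 FPKM in titled control libraries) did not pass. Of 24 members of the BCL2 family and caspases, which includes genes of the p53 lists, 6 were higher and 7 were lower (1 higher and 7 lower without titled control 3 and 4). Called in this list were 54.2%, against 25.2% of all tested genes. *Bid*, which encodes a BH3 protein (log2 fold change -0.46), was lower, as was *Mcl1*, which protects cells (-0.23), and *Bmf*, another BH3-only gene named after its value was seen, was higher (0.44).

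In the immediate early list 30.4% of tested members were lower, against 13.4% of all tested genes. Immediate early genes gave 7 of 23 lower and none higher (median -0.17), and 6 without titled control 3 and 4. Beside *Btg2*, these included *Cyr61*, a matricellular gene that YAP activates (3.58, 3.38, 3.69 and 3.26 FPKM in titled mutant libraries, against 12.4, 11.6, 12.3 and 11.5 FPKM in titled control libraries). *Jun*, a subunit of AP-1, was lower too (9.51, 11.4, 8.06 and 10.4 FPKM in titled mutant libraries, against 24.3, 23.5, 23.4 and 21.8 FPKM in titled control libraries). *Gadd45b*, a stress sensor (log2 fold change -0.86), and *Jund* (-0.44) fell with them. *Myc* did not pass (90.5 ± 4.63 FPKM in titled mutant and 85.5 ± 2.75 FPKM in titled control libraries), nor did *Fos*, named after its value was seen (9.01 ± 1.15 FPKM in titled mutant and 7.17 ± 1.82 FPKM in titled control libraries). By column name, the genes that fell are higher in mutants.

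More sterol and sugar genes were higher than lower, and the respiratory chain and ribosomal protein genes that passed were lower. Of tested members, 53.6% of the cholesterol list and 36.0% of the glycolysis list were higher, against 11.8% of all tested genes. Lower were 40.0% of the oxidative phosphorylation list and 28.6% of the ribosomal protein list, against 13.4% of all tested genes. Of 28 genes of cholesterol and fatty acid synthesis, 15 were higher and none was lower (median 0.27), and 6 were higher without titled control 3 and 4. *Acly*, which makes cytosolic acetyl-CoA, had 129, 134, 120.2 and 125 FPKM in titled mutant libraries, against 99.5, 93.8, 93.1 and 97.95 FPKM in titled control libraries. *Srebf2*, the factor that drives sterol genes, was higher (55.4 ± 1.15 FPKM in titled mutant and 41.9 ± 3.11 FPKM in titled control libraries). *Hmgcs1*, which feeds the mevalonate pathway, was higher too (87.7 ± 5.97 FPKM in titled mutant and 66.9 ± 4.54 FPKM in titled control libraries). *Scd2*, a desaturase, did not pass (211 ± 20.7 FPKM in titled mutant and 184 ± 5.997 FPKM in titled control libraries). In the glycolysis list, 9 of 25 were higher and 2 were lower (median 0.15, with 6 higher and 2 lower without titled control 3 and 4). *Vegfa*, a target of hypoxia signalling, had 32.6, 31.9, 32.6 and 30.8 FPKM in titled mutant libraries, against 18.2, 21.2, 18.6 and 19.4 FPKM in titled control libraries. *Slc2a1*, the main glucose transporter of the epidermis, had 138, 113, 120.1 and 109 FPKM in titled mutant libraries, against 76.4, 80.7, 81.9 and 78.3 FPKM in titled control libraries. *Slc2a3*, the other facilitative transporter, was lower (142, 119, 129 and 120.2 FPKM in titled mutant libraries, against 235, 209, 178 and 169 FPKM in titled control libraries), the opposite direction from *Slc2a1*. *Aldoc*, an aldolase, was higher (3.19 ± 0.326 FPKM in titled mutant and 1.497 ± 0.291 FPKM in titled control libraries), and *Pkm* (651 ± 40.3 FPKM in titled mutant and 602 ± 18.98 FPKM in titled control libraries) did not pass. Of 60 genes of oxidative phosphorylation, 24 were lower and none was higher (median -0.12), with 18 lower and 3 higher after quantile normalization and 5 lower without titled control 3 and 4. *Ndufa4*, a respiratory chain gene, was lower (234 ± 7.69 FPKM in titled mutant and 284 ± 12.7 FPKM in titled control libraries). *Cox6b1*, of complex IV, was lower too (250.1 ± 8.94 FPKM in titled mutant and 298 ± 15.4 FPKM in titled control libraries). *Atp5b* of the ATP synthase, the most abundant, did not pass (924 ± 63.9 FPKM in titled mutant and 957 ± 19.1 FPKM in titled control libraries). Of 70 cytosolic ribosomal protein genes, 20 were lower and none was higher (median -0.12). Quantile normalization gave 10 lower and 1 higher, and 3 were lower without titled control 3 and 4. The genes have many processed copies to which reads could be assigned. *Rps27l*, a paralogue of *Rps27* that p53 is known to activate in human cells, stood apart with 179.5, 183, 176 and 182 FPKM in titled mutant libraries, against 284, 296, 336 and 350.3 FPKM in titled control libraries. *Rpl19* followed (997 ± 7.62 FPKM in titled mutant and 1213 ± 57.7 FPKM in titled control libraries), and *Rplp1*, the most abundant, did not pass (3193 ± 55.3 FPKM in titled mutant and 3481 ± 229 FPKM in titled control libraries). In the stress response lists, 2 of 24 were higher and 5 were lower for the integrated stress and unfolded protein response (1 higher and 2 lower without titled control 3 and 4). For NRF2, 4 of 19 were higher and 5 were lower (2 higher and 1 lower without titled control 3 and 4). Called in either direction were 29.2% of the stress and unfolded protein list and 47.4% of the NRF2 list, against 25.2% of all tested genes. *Atf3*, a stress-induced factor, was lower (7.497 ± 1.05 FPKM in titled mutant and 10.5 ± 0.771 FPKM in titled control libraries). *Slc7a11*, the cystine transporter, was higher (4.32 ± 0.8996 FPKM in titled mutant and 2.42 ± 0.435 FPKM in titled control libraries). *Gstm1*, a glutathione transferase, was higher (13.54 ± 1.52 FPKM in titled mutant and 7.12 ± 1.39 FPKM in titled control libraries). *Txn1*, thioredoxin, was lower (132 ± 2.16 FPKM in titled mutant and 165 ± 7.73 FPKM in titled control libraries). *Txnrd1*, thioredoxin reductase and among the most abundant of these genes, varied among the titled mutant libraries and did not pass (1514, 2098, 2595 and 1219 FPKM in titled mutant libraries, against 2892, 2890.0, 2886 and 2389 FPKM in titled control libraries).

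Adhesion genes were divided, with 7 of 31 desmosome and tight junction genes higher and 7 lower (3 higher and 5 lower without titled control 3 and 4). Called in either direction were 45.2% of tested members of this list and 33.3% of the division orientation list. The shares were 47.8% for the Hox list and 43.8% for the interferon list, against 25.2% of all tested genes. *Cldn1*, the barrier claudin, was higher (32.95, 32.8, 31.1 and 31.7 FPKM in titled mutant libraries, against 20.5, 23.3, 21.1 and 22.3 FPKM in titled control libraries). *Pkp1*, a plakophilin of suprabasal desmosomes, was higher too (90.6 ± 10.2 FPKM in titled mutant and 60.3 ± 2.45 FPKM in titled control libraries). *F11r*, which encodes a junctional adhesion molecule, was lower (21.8 ± 2.84 FPKM in titled mutant and 30.2 ± 1.78 FPKM in titled control libraries), not without titled control 3 and 4 (adjusted p = 0.0706). Of 30 genes of division orientation and polarity, 6 were higher and 4 were lower (median 0.00, with 2 higher and 2 lower without titled control 3 and 4). *Numa1*, which anchors dynein at the cortex, was higher (87.9 ± 2.19 FPKM in titled mutant and 74.96 ± 2.38 FPKM in titled control libraries). *Llgl1*, a polarity gene, was higher too (33.02 ± 0.156 FPKM in titled mutant and 28.04 ± 1.62 FPKM in titled control libraries). *Ctnna1*, alpha-catenin, was lower (99.4 ± 1.13 FPKM in titled mutant and 111 ± 1.39 FPKM in titled control libraries). The E-cadherin gene *Cdh1*, named after its value was seen, did not pass (128 ± 5.03 FPKM in titled mutant and 123 ± 3.99 FPKM in titled control libraries). The same holds for *Gpsm2*, the LGN adaptor of spindle orientation (46.8 ± 4.63 FPKM in titled mutant and 46.8 ± 2.57 FPKM in titled control libraries). Of 23 Hox genes, 8 were higher and 3 were lower. *Hoxb3* was higher (8.05, 7.34, 6.66 and 6.33 FPKM in titled mutant libraries, against 4.601, 4.65, 4.402 and 4.84 FPKM in titled control libraries). *Hoxc13*, which acts in hair and nail, was lower (1.18, 0.916, 0.833 and 0.702 FPKM in titled mutant libraries, against 1.65, 1.79, 1.84 and 2.14 FPKM in titled control libraries). Without titled control 3 and 4, 1 member of the list was higher and 1 was lower. In the interferon list, 4 of 16 tested genes were higher, *Stat2* among them (5.205 ± 0.2805 FPKM in titled mutant and 3.86 ± 0.298 FPKM in titled control libraries). Another 3 were lower, *Ifit2* among them (4.68 ± 0.426 FPKM in titled mutant and 6.36 ± 0.339 FPKM in titled control libraries), with 1 higher and 0 lower without titled control 3 and 4.

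Of the markers of other cells, most tested melanoblast genes were lower and a few fibroblast genes were higher. Lower were 66.7% of tested melanoblast markers, against 13.4% of all tested genes. Higher were 27.3% of tested fibroblast markers, against 11.8% of all tested genes. Of 9 tested melanoblast markers, 6 were lower and none was higher (median -0.36), and 3 were lower without titled control 3 and 4. *Mlana*, a melanosome protein gene, had 4.57, 5.88, 3.58 and 5.38 FPKM in the libraries titled mutant 1 to 4, against 14.5, 10.97, 12.2 and 10.6 FPKM in those titled control 1 to 4. *Pmel*, which forms the fibrils of the melanosome, had 11.98 ± 0.463 FPKM in titled mutant and 17.0 ± 0.582 FPKM in titled control libraries. *Ednrb*, the endothelin receptor of melanoblasts, was lower (4.56 ± 0.237 FPKM in titled mutant and 6.12 ± 0.307 FPKM in titled control libraries), and *Sox10* was lower by little (log2 fold change -0.20). *Kit*, named after its value was seen, did not pass (13.6 ± 0.2503 FPKM in titled mutant and 14.7 ± 0.428 FPKM in titled control libraries). Of 11 tested fibroblast markers, 3 were higher and none was lower (median 0.55), and the same number was higher without titled control 3 and 4. *Postn*, a matricellular protein of the basement membrane zone, had 313, 290.5, 325 and 303 FPKM in titled mutant libraries, against 149, 172, 147 and 128 FPKM in titled control libraries. *Thy1*, a surface glycoprotein, had 12.1, 12.8, 12.05 and 8.39 FPKM in titled mutant libraries, against 1.09, 2.404, 1.601 and 2.07 FPKM in titled control libraries. *Col1a2* was higher (8.71, 17.4, 12.9 and 13.8 FPKM in titled mutant libraries, against 4.73, 4.86, 6.48 and 8.02 FPKM in titled control libraries). *Vim* did not pass (144 ± 4.31 FPKM in titled mutant and 138 ± 8.44 FPKM in titled control libraries), nor did *Dcn* (98.7 ± 4.22 FPKM in titled mutant and 99.7 ± 5.61 FPKM in titled control libraries), named after its value was seen. The defining fibroblast genes *Col1a1* and *Twist2* are named after their values were seen. *Col1a1* had 2.16, 11.2, 2.798 and 6.35 FPKM in titled mutant libraries, against 1.84, 1.18, 2.82 and 4.398 FPKM in titled control libraries. *Twist2* had 0.482, 2.69, 0.931 and 1.29 FPKM in titled mutant libraries, against 0.349, 0.605, 0.416 and 0.5996 FPKM in titled control libraries and was not tested. Titled mutant 2 was the highest for both. The part of dermal cells in other differences was not tested. Of the erythroid markers, *Hba-a2* was lower (0.322, 1.34, 0.871 and 0.199 FPKM in titled mutant libraries, against 2.55, 3.04, 7.97 and 19.1 FPKM in titled control libraries). *Hba-a1*, nearly identical to it, did not pass (36.2 ± 25.2 FPKM in titled mutant and 38.1 ± 37.1 FPKM in titled control libraries), so both are uncertain.

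The 12 largest falls with groups that did not overlap included *Cpt1c*, *Cdkn1a*, *Ddit4l*, *Trp53inp1*, *Eda2r* and *Ccng1* of the p53 lists. In the 6 others, which were outside the lists, no titled mutant library reached 1 FPKM, so they passed the filter through the titled control libraries alone and had to differ. *Ms4a10*, which encodes a membrane protein, had 0.103, 0.1497, 0.0355 and 0.404 FPKM in titled mutant libraries, against 6.56, 6.39, 9.77 and 11.7 FPKM in titled control libraries. *Zfp365*, a zinc finger gene, had 0.452, 0.249, 0.189 and 0.276 FPKM in titled mutant libraries, against 7.91, 6.13, 10.5 and 9.999 FPKM in titled control libraries. *Ephx1*, microsomal epoxide hydrolase, had 0.529, 0.512, 0.348 and 0.157 FPKM in titled mutant libraries, against 8.39, 6.57, 11.4 and 10.4 FPKM in titled control libraries. *Abcb1b*, a drug efflux pump, had 0.172, 0.344, 0.09296 and 0.0681 FPKM in titled mutant libraries, against 6.34, 5.42, 8.94 and 8.25 FPKM in titled control libraries. In each of these 4 genes titled control 3 and 4 were above titled control 1 and 2. *Celf5*, an RNA-binding protein gene (0.148 ± 0.0585 FPKM in titled mutant and 6.89 ± 1.43 FPKM in titled control libraries, log2 fold change -2.76), and *Trim7*, a ubiquitin ligase gene (0.359 ± 0.117 FPKM in titled mutant and 7.09 ± 1.08 FPKM in titled control libraries, -2.57), completed the group. Among the 12 largest rises, *Krt1*, *Gli1*, *Thy1* and *Cenpj* were described above. *Slc22a4*, an organic cation transporter, had 7.02, 7.36, 5.54 and 7.19 FPKM in titled mutant libraries, against 1.87, 1.94, 2.27 and 2.24 FPKM in titled control libraries. *Frem1*, an extracellular matrix protein of the embryonic basement membrane, had 3.89, 4.75, 2.205 and 4.47 FPKM in titled mutant libraries, against 0.8502, 0.884, 1.22 and 0.808 FPKM in titled control libraries. *Igfbp5*, which binds insulin-like growth factors, had 108, 96.4, 90.3 and 81.5 FPKM in titled mutant libraries, against 41.2, 50.8, 35.7 and 33.7 FPKM in titled control libraries. *Serpinb3c*, a protease inhibitor, had 6.47, 8.83, 5.56 and 6.08 FPKM in titled mutant libraries, against 2.25, 2.81, 2.11 and 3.001 FPKM in titled control libraries. These genes were chosen among those whose groups did not overlap, so all 4 titled mutant libraries had to be above all 4 titled control libraries. The other 4 of the 12 rises, *mt-Te*, *Gm22826*, *Gm22486* and *Gm12941*, are short or predicted genes, and *Gm12941* passed the filter through the titled mutant libraries alone. *Frem1*, *mt-Te* and *Gm22826* reached 1 FPKM in only 1 titled control library each, so they passed mainly through the titled mutant libraries, where they are high. The mitochondrial transfer RNA gene *mt-Te* was at 2017, 7249.6, 3299.5 and 2343 FPKM in the libraries titled mutant 1 to 4, against 1936, 0, 0 and 0 FPKM in those titled control 1 to 4, and its call was lost in 5 of the 18 alternatives. *Gm22486* lost its call in 6. Of 49 tested genes listed at 0 in one library and above 20 FPKM in another, 38 were shorter than 200 bases. Grouped by column name, the largest falls are the largest rises in mutants.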

How the data were processed

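The labels describe skin of E13.5 embryos whose epidermis was lifted with trypsin and pancreatin before RNA isolation and Illumina sequencing. The authors deposited 1 table of FPKM values per stage, which they made with the QuickNGS pipeline. Among the tools in the submitters' processing notes is FastQC 0.11.5, the build is mm10, and no source used here names the aligner. FPKM values are not counts, and neither fragment counts nor depth came with them. limma 3.58.1 in R 4.3.3 (mean trend, Benjamini-Hochberg adjustment) compared titled mutant minus titled control on log2(FPKM + 1), for genes at 1 FPKM or more in 4 of 8 libraries. Fold changes on this scale understate changes of low genes. Groups came from the titles, against the column names. Scripts were tested on simulated data. Members and lists were chosen with earlier results of these data known. Named genes were the 12 largest rises and falls with groups that did not overlap, in each list up to 5 genes of the smallest adjusted p and the 2 of the highest FPKM, all p53 list members, and those nearest the filter. Others are said to be named after their values were seen. The 18 alternatives changed the pseudocount, filter, scaling, weights, trend, block, sex term or libraries. Gene symbols came from the table for 20695 genes and from the reference for 28503. Python 3.11.15 was used for the promoter search on RefSeq sequences.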

Additional observations from a re-analysis of the deposited data

Results flagged for a closer look

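The difference between the E13.5 and P0 effects on *Cenpj*, 2.11 on the log2 scale, is listed because the same labelled contrast ran in opposite directions at the 2 stages. Among 444 groups of 4 libraries, 25 held a library farther from the others than Dixon's critical value for 4 samples, and chance alone gives about 1 group in 20. In titled mutant 1, *Rchy1* had 31.5 FPKM against 30.4 to 30.6 FPKM in the others. In titled mutant 2, *Pid1* had 1.32 FPKM against 1.51 to 1.55 FPKM in the others and *Ptprv* had 0.222 FPKM against 0.0192 to 0.0471 FPKM in the others. In titled mutant 3, *Id4* had 2.84 FPKM against 3.95 to 4.07 FPKM in the others, *Pmaip1* had 6.72 FPKM against 9.09 to 9.33 FPKM in the others and *Rb1* had 19.5 FPKM against 15.9 to 15.97 FPKM in the others. In titled mutant 4, *Gls2* had 1.703 FPKM against 2.62 to 2.68 FPKM in the others, *Thy1* had 8.39 FPKM against 12.05 to 12.8 FPKM in the others and *Trp53inp1* had 5.26 FPKM against 5.56 to 5.61 FPKM in the others. In titled control 1, *mt-Te* had 1936 FPKM against 0 FPKM in the others. In titled control 2, *Celf5* had 4.76 FPKM against 7.396 to 7.77 FPKM in the others, *Foxi3* had 11.04 FPKM against 9.25 to 9.499 FPKM in the others, *Krt15* had 286 FPKM against 181 to 195 FPKM in the others and *Polk* had 13.2 FPKM against 15.4 to 15.6 FPKM in the others. Further in titled control 2, *Pttg1* had 54.5 FPKM against 47.2 to 48.3 FPKM in the others, *Rrm2b* had 1.28 FPKM against 1.94 to 2.01 FPKM in the others and *Wnt4* had 51.1 FPKM against 43.1 to 43.3 FPKM in the others. In titled control 3, *Erbb2* had 42.5 FPKM against 46.9 to 47.4 FPKM in the others, *Fancc* had 9.1 FPKM against 5.21 to 5.54 FPKM in the others, *Gm22826* had 1.52 FPKM against 0 FPKM in the others and *Itgb1* had 68.4 FPKM against 64.2 to 64.7 FPKM in the others. Further in titled control 3, *Smo* had 46.02 FPKM against 50.5 to 51.3 FPKM in the others. In titled control 4, *Gm12941* had 0.957 FPKM against 0 FPKM in the others, *Haus2* had 24.6 FPKM against 20.2 to 20.5 FPKM in the others and *Txnrd1* had 2389 FPKM against 2886 to 2892 FPKM in the others.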

How the results depend on the processing

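Of the 222 genes with values in the text, 166 passed the adjusted p as reported, 36 of these lost the call in at least 1 of the 18 alternatives and none reversed. With a mean FPKM of at least 5, only 134 of the 166 had a value, and a gene without one was not counted as lost. Of the 55 tested genes reported as not passing, 14 passed in at least 1 alternative. Leaving out titled control 3 and 4 together ended the most of these calls, 34. All genes past the adjusted p numbered 1267 without both of these libraries (536 higher, 731 lower), a fit of 4 against 2 libraries, and the replicate block gave 2766. Leaving out 1 library at a time gave 2196 to 3283, with 1001 to 1549 higher (1001 without titled mutant 1) and 1176 to 1872 lower. The fold rule took 251 genes with a pseudocount of 0.1 (75 higher) and 85 with a mean FPKM of at least 5 (65 lower), and 145 to 170 when 1 library was left out, with 27 to 45 higher (45 without titled mutant 3) and 117 to 134 lower. *Cenpj* stayed between 1.06 and 1.09 on the log2 scale and the p53 median between -0.47 and -0.43, with 42 to 46 members lower, when 1 library was left out. Deviations from the group means correlated at 0.0016, -0.014, 0.068 and 0.025 between same-numbered libraries of the 2 groups. Between libraries of different number they correlated at -0.105 to 0.077. No shared deviation was seen by number, which does not show whether the libraries were paired. The causes of these changes were not tested. Without read totals, the precision of low FPKM values is unknown.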
